A study of Mus musculus with 40 samples.

Results

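Mammary glands of mice that lacked Ezh2 in the mammary epithelium were compared with glands of mice that lacked Ezh1, both at day 13 of pregnancy. Of the 22552 genes in the deposited table, the 13467 with at least 1 FPKM (fragments mapped to a gene, scaled to transcript length and to the mapped total of the library) in either group were compared, and the 9085 genes below that level in both were left out. At the edge of that rule, Nr5a2 was kept with 1.00 FPKM in the Ezh2 KO and 0.659 in the Ezh1 KO, and C430049B03Rik was left out with 0.478 and 1.000. The Ezh2 KO animals carried the genotype Ezh2f/f;control, in which "control" is a transgenic line A that expresses Cre recombinase from the MMTV promoter, so deletion is limited to cells in which that promoter is active. The Ezh1 KO animals were E1-/-, a genotype written without a floxed allele or Cre, so Ezh1 is lost in all cells and Ezh2 only in part of them. Both groups were outbred, untreated, pregnant females of unstated age, with 3 whole-tissue poly(A) RNA libraries each, so 6 of the 40 samples of the series enter the comparison. Values for MMTV-Cre control glands, for glands with 1 Ezh1 allele and no Ezh2 (E1+/-;E2f/f;control), and for both knockouts at day 18 are given beside them where they help to read a level. The authors deposited 1 pooled value per gene and group. No replicate error, read depth or p-value can therefore be attached to any difference below, and no difference has been tested against the variation between animals.

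Polycomb repressive complex 2 (PRC2) works with either EZH2 or EZH1 as its enzyme. It methylates lysine 27 of histone H3, a mark that keeps developmental genes silent. EZH2 is abundant in dividing cells, while EZH1 is also found in resting, differentiated cells. In the pregnant gland, prolactin acts through its receptor, JAK2 and the transcription factor STAT5 to drive alveolar cells toward milk synthesis, and casein genes are switched on before the genes of the late whey proteins. Mid-pregnancy glands still hold much fat, connective tissue, vessels and nerve around the growing alveoli.

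Markers of the labelled tissue were present in both groups, with Krt8 and Krt18, keratins of luminal epithelium, at 312 FPKM or more. RNA of other tissues was present too and unequal. Skeletal muscle genes held 0.439% of the summed FPKM in the Ezh1 KO, 0.007% in the Ezh2 KO and 1.68% in the control. Of 20 liver genes that passed the threshold below, all were picked as lower in the Ezh2 KO than in the Ezh1 KO. In 19 of them the Ezh1 KO was also above the control and the E1+/-;E2f/f;control glands, a place that this choice of genes favours. The brown fat gene Ucp1 was above 2 FPKM in the Ezh2 KO alone of the 4 groups of that day. Of the 544 lower genes, 43 were in the muscle, hepatocyte, erythroid and nerve lists and 140 were small RNA genes.

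The deleted genes were read first. Ezh1 stood at 9.50 FPKM in the Ezh2 KO and at 1.06 in the Ezh1 KO, with 14.7 in the control, so the Ezh1 KO was the low group, as its label says, by 8.97-fold. Ezh2 stood at 13.7 FPKM in the Ezh2 KO, 13.8 in the Ezh1 KO and 12.9 in the control. This whole-gene value in whole tissue does not separate the groups and so does not check the Ezh2 deletion; the libraries are called Ezh2 KO by their label. Among the 13 measured PRC2 subunits and H3K27 demethylases, Ezh1 was the only one past the threshold used below, and the median difference was 0.14. The scaffold subunit Eed was 16.6 FPKM in both groups, and the core subunit Suz12 was 26.6 in the Ezh2 KO and 20.8 in the Ezh1 KO. The accessory subunits Jarid2 (19.1 and 15.3 FPKM) and Mtf2 (11.5 and 8.70) were slightly higher in the Ezh2 KO, and Phf1 (6.20 and 10.7) was lower.

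Throughout, a difference is log2(FPKM + 1) in the Ezh2 KO minus the same in the Ezh1 KO, on which low genes look closer together than their ratio, and a fold is a plain ratio of FPKM. A difference of 1 or more in size was counted. By that count 703 genes (5.22%) differed, of which 159 (1.18% of those compared) were higher in the Ezh2 KO and 544 (4.04%) lower. The median difference of the 13467 was 0.02. The 12777 protein-coding genes gave 507 (3.97%), made up of 117 on the higher side (0.916%) and 390 on the lower (3.05%). When both groups were brought to the same sum of FPKM, the median of all genes moved by -0.16, and 115 genes were higher and 721 lower, a split of 13.8% to the higher side in place of 22.6%. Matching the upper quartile of FPKM instead left 155 and 557. The higher side held milk protein genes, and the lower side held genes of muscle, liver, nerve, connective tissue, fat and lipid synthesis.

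**Figure D1:**
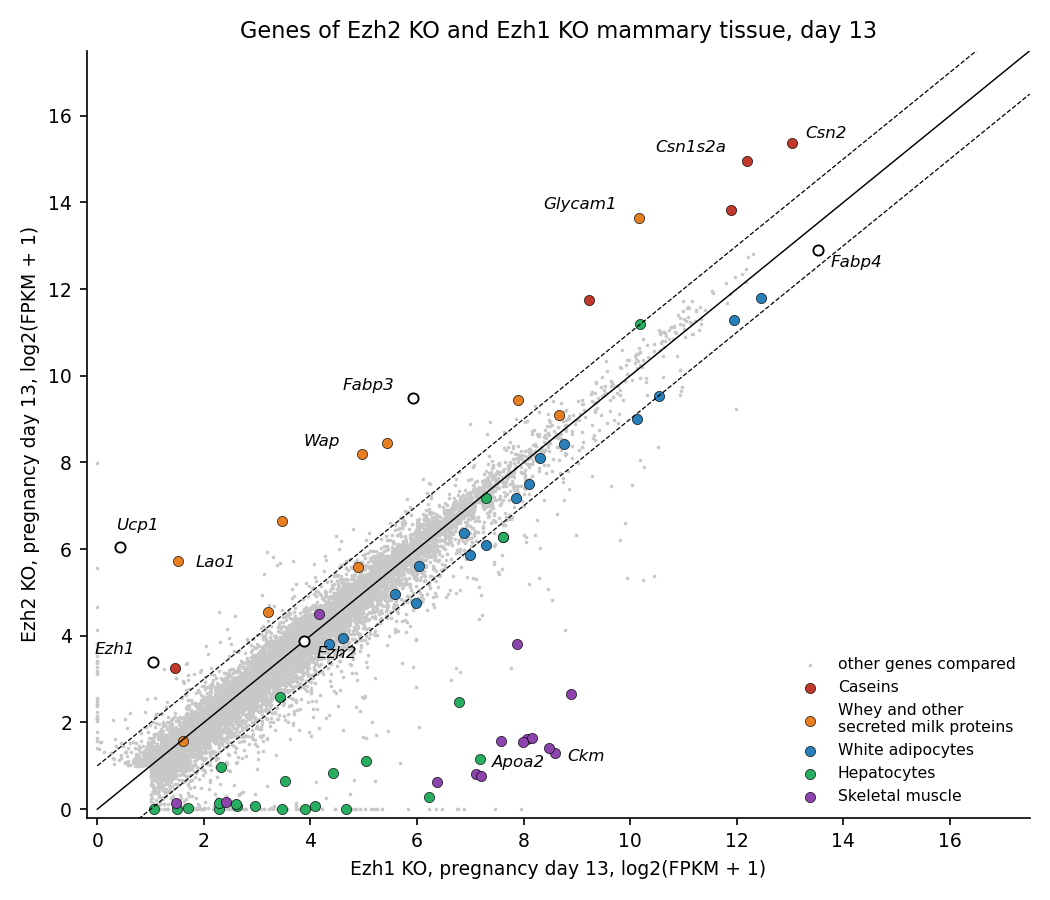
Each point is 1 of the 13467 genes compared, with log2(FPKM + 1) in the Ezh1 KO on the horizontal axis and in the Ezh2 KO on the vertical axis at day 13; the solid line marks equal values and the dashed lines a difference of 1. All 5 caseins and 7 of 10 whey-list genes lie above the upper line, skeletal muscle and hepatocyte genes lie far below the lower line, and Ezh2 lies on the line of equal values.

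All 5 casein genes were higher in the Ezh2 KO, with a median difference of 2.34, against 1.18% of all genes on that side. Caseins are the main proteins of mouse milk. Csn2, beta-casein, stood at 42713 FPKM in the Ezh2 KO and 8447 in the Ezh1 KO, a 5.06-fold ratio. Csn1s2a, an alpha-S2 casein, stood at 32011 and 4659 FPKM, the widest ratio of the 5 at 6.87-fold. Csn3, kappa-casein, which coats the casein micelle, was 3437 and 597 FPKM. The alpha-S1 casein gene Csn1s1 had the narrowest ratio, with 14527 against 3806 FPKM. Csn1s2b was far weaker than the others at 8.49 and 1.74 FPKM and still differed 4.89-fold. Together the caseins made up 12.7% of the summed FPKM of the Ezh2 KO and 2.72% of that of the Ezh1 KO.

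Of 10 other secreted milk protein genes compared, 9 were positive and 7 passed the threshold. The median difference was 2.28, and none passed on the lower side. Glycam1, a mucin-like milk protein that lymph node venules also make, was 12834 FPKM in the Ezh2 KO and 1151 in the Ezh1 KO. Of 6 compared genes of a lymph node list that includes Glycam1, 4 were positive, with a median of 0.51. Madcam1, of the same venules, was 6.18 and 2.99 FPKM, and lymphotoxin Ltb 3.08 and 2.63. The chemokine Cxcl13 was 0.831 and 4.60 FPKM, and Ccl19 and Ccl21a were listed at 0 in both. The part of lymph node RNA in the Glycam1 value was not tested. Wap, whey acidic protein, stood at 291 and 30.3 FPKM. Lalba, alpha-lactalbumin, which turns galactosyltransferase into lactose synthase, stood at 99.4 and 10.1 FPKM, so both classical whey genes differed by nearly the same ratio, 9.58-fold and 9.86-fold. Lao1, an L-amino acid oxidase of milk, showed the widest ratio of the list with 52.0 against 1.87 FPKM. Osteopontin, encoded by Spp1, was 346 and 42.2 FPKM. Cel, the bile-salt-activated lipase of milk (22.3 and 8.19 FPKM), and the membrane mucin Muc15 (699 and 237) were higher by smaller ratios. Not every gene of the list passed. Mfge8 (542 and 404 FPKM) and Muc1 (46.8 and 28.8) were positive but within the threshold, Pthlh differed by -0.04, and Pip was below 1 FPKM in both groups.

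In 5 of 5 caseins and 6 of the 7 whey-list genes past the threshold, the 4 day 13 groups took the same order, with the Ezh2 KO highest, then the E1+/-;E2f/f;control glands, then the Ezh1 KO and then the control. Lalba was the exception, at 121 FPKM in the E1+/-;E2f/f;control glands. The place of the Ezh2 KO above the Ezh1 KO was set by the choice of genes past the threshold. That choice also favours a high place of the Ezh2 KO among the 4 groups. For Csn2 the Ezh1 KO and the control had 8447 and 5570 FPKM, and the E1+/-;E2f/f;control glands had 19742. Casein and whey genes together held 14.8% of the summed FPKM in the Ezh2 KO, 7.35% in the E1+/-;E2f/f;control glands, 3.02% in the Ezh1 KO and 1.68% in the control.

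The upstream sequences of 5 of these genes are shown because STAT5 binds the palindrome TTCNNNGAA and these genes lay on the same side. They are RefSeq sequences on build GRCm38.p6, which is not the mm9 build of the deposited table, and cover the 250 bases before the annotated start, read 5′ to 3′ on the gene's strand, with each TTCNNNGAA match in capitals.
Csn2, chr5:87699426-87699675, minus strand: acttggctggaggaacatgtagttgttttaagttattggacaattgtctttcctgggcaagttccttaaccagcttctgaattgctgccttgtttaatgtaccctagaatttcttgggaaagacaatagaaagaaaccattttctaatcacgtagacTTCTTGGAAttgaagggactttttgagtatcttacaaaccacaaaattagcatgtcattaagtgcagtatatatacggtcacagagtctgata
Csn1s1, chr5:87665958-87666207, plus strand: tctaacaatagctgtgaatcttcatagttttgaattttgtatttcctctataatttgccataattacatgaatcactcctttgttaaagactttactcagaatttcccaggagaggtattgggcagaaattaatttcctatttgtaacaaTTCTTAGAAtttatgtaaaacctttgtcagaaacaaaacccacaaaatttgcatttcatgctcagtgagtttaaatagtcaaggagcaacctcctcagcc
Glycam1, chr15:103565082-103565331, minus strand: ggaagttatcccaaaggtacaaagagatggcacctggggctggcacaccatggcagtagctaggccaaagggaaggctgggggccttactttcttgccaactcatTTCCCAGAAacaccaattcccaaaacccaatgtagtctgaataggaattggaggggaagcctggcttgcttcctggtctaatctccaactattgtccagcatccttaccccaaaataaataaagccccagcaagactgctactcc
Csn1s2a, chr5:87774200-87774449, plus strand: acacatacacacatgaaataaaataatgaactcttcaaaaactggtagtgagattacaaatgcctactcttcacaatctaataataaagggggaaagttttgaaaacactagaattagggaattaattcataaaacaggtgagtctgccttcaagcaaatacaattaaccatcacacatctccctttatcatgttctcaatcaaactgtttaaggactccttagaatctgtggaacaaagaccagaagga
Wap, chr11:6638650-6638899, minus strand: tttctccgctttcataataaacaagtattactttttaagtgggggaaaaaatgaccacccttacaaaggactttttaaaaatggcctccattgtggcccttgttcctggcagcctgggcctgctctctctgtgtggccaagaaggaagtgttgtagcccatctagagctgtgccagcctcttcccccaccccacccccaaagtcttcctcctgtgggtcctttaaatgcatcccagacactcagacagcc
Csn2 held 1 match, TTCTTGGAA, which began 93 bases before the start. Csn1s1 held TTCTTAGAA, beginning at 100 bases, and Glycam1 held TTCCCAGAA, beginning at 145 bases, while the windows of Csn1s2a and Wap held no match. The motif reads the same on both strands. It was present in 3 of the 12 compared casein and whey genes with a window (25%) and in 7.02% of all 32851 windows. It was also present in 8 of 90 higher protein-coding genes (8.89%), in 24 of 296 lower ones (8.11%) and in 7.20% of all protein-coding genes compared. Pip, of the whey list, was left out of that count as below 1 FPKM in both groups. Its window held 2 matches, TTCATAGAA and TTCTGTGAA. These are letter matches in short windows and say nothing of binding; the STAT5 chromatin libraries of the series were not analysed here.

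Some genes for the fat, minerals and transport of milk were also higher. The share of higher genes over all genes compared was 1.18%. Fabp3, a fatty acid binding protein of muscle and lactating mammary epithelium, stood at 719 FPKM in the Ezh2 KO and 59.9 in the Ezh1 KO, a 12.0-fold ratio that exceeded those of the caseins. Of the 8 genes for secretion of milk fat globules, 2 were higher, the lipid droplet protein Cidea (50.3 and 9.75 FPKM) and butyrophilin Btn1a1 (143 and 55.0), with a median of 0.89. Xdh and Abcg2 came close to the threshold with differences of 0.90 and 0.94. All 14 compared genes for mineral, folate and ion transport had positive values, 4 of them past the threshold: the phosphate carrier Slc34a2 (8.42 and 1.85 FPKM), the folate receptor Folr1 (56.2 and 18.3), the secretory-pathway calcium pump Atp2c2 (6.78 and 2.06) and carbonic anhydrase Car2 (104 and 50.3). With a pseudocount of 5, Folr1 alone of these 4 passed. Acsl4, an acyl-CoA synthetase, was 44.3 against 18.1 FPKM. Among the amino acid transporters, the leucine carrier Slc7a5 was higher (39.7 and 16.1 FPKM) and the glutamine carrier Slc1a5 lower (106 and 219).

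Immune proteins of milk were split. Pigr encodes the polymeric immunoglobulin receptor, which moves IgA across the epithelium; it stood at 55.3 FPKM in the Ezh2 KO and 8.87 in the Ezh1 KO. Lipocalin Lcn2 was 418 and 198 FPKM, and the receptor Tlr2, the acute-phase protein Saa1 and lactoperoxidase Lpo were also higher, Saa1 and Lpo at under 2 FPKM in both groups. Lyz2, the lysozyme of macrophages, was the 1 lower member, with 253 and 521 FPKM. Wfdc3, of the whey acidic protein family, was 60.2 against 8.11 FPKM and Chi3l1, a chitinase-like secreted protein, 42.1 against 7.73. The zinc- and copper-binding metallothioneins were higher too, Mt2 at 471 and 126 FPKM and Mt1 at 509 and 230. On a common sum of FPKM, 1 of the 3 glucocorticoid and metallothionein genes past the threshold remained.

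Among 22 interferon response genes, all had positive differences and 4 passed the threshold, against 1.18% of all genes on that side. The median was 0.67. The passing genes were Gbp1, a guanylate-binding protein (3.20 FPKM in the Ezh2 KO and 0.434 in the Ezh1 KO), Ifi44 (21.7 and 8.02), Ifit1 (34.3 and 14.6) and Ifit2 (19.2 and 8.16). Ifit proteins bind foreign RNA. On a common sum of FPKM, 19 of the 22 stayed positive and 3 passed the threshold, and with a pseudocount of 5 only Ifi44 passed. The E1+/-;E2f/f;control glands were not below the Ezh2 KO for Ifit1 (39.1 FPKM) or Gbp1 (11.1), and the control was below both knockouts for each of the 4.

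**Figure D2:**
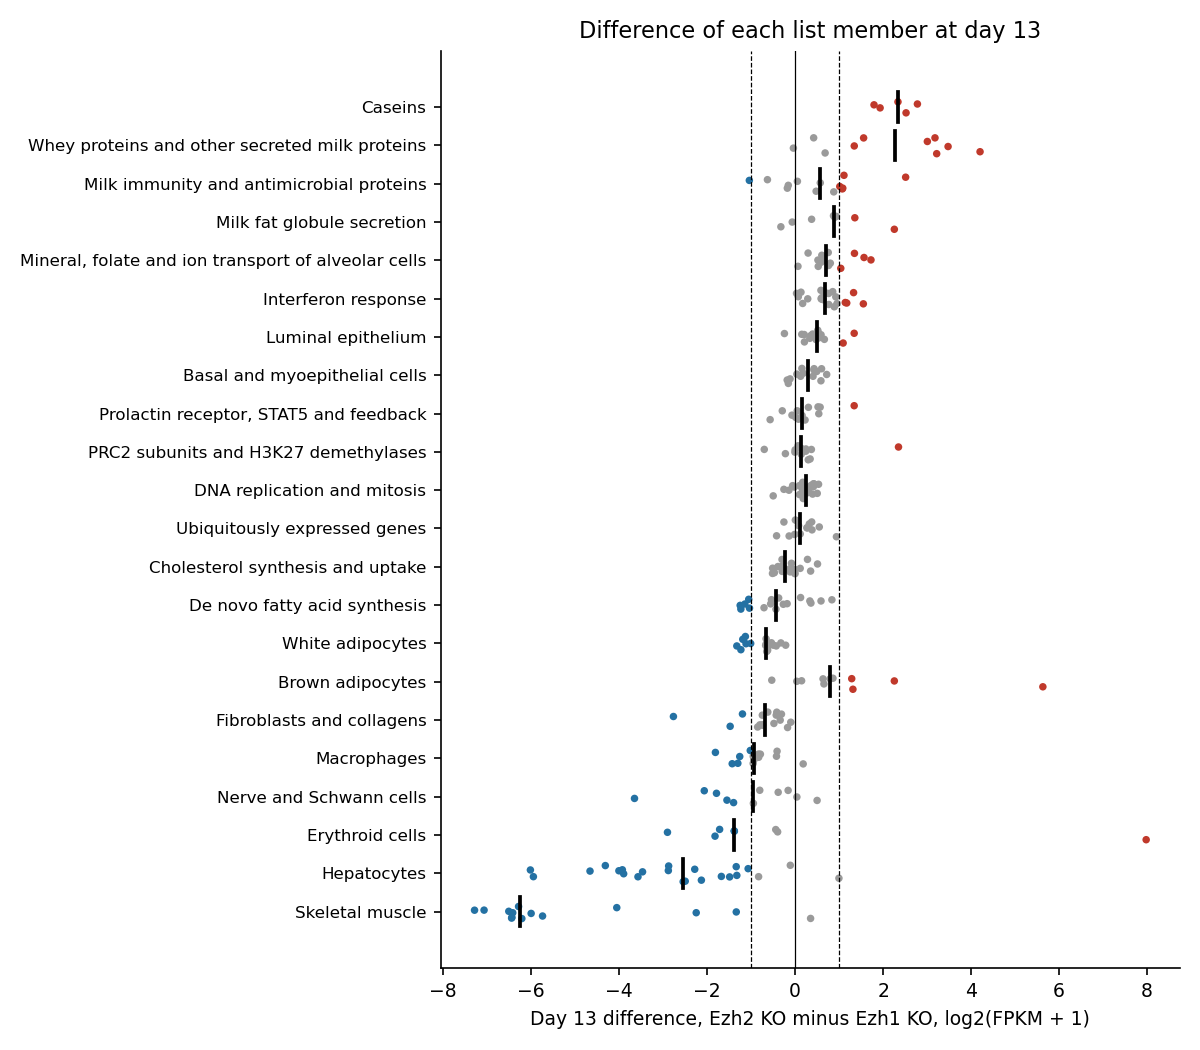
Points are the compared members of 22 gene lists, placed by the day 13 difference between Ezh2 KO and Ezh1 KO on the log2(FPKM + 1) scale; red points are at 1 or more, blue points at -1 or less, and black bars are list medians. The casein median is 2.34 and that of skeletal muscle is -6.25, while lists such as PRC2 subunits, replication genes and ubiquitously expressed genes sit near 0.

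The prolactin pathway itself differed much less than its milk protein targets. The median of 13 genes for the prolactin receptor, STAT5 and its feedback was 0.16, against 2.34 for the caseins. Of the 13, 10 were positive and 1 passed the threshold, against 1.18% of all genes on the higher side. That gene was Elf5, a transcription factor of alveolar cells, at 402 FPKM in the Ezh2 KO and 158 in the Ezh1 KO. Stat5a was 57.5 and 39.3 FPKM and Stat5b 26.6 and 25.7. The receptor gene Prlr stood at 8.71 and 5.77 FPKM, its kinase gene Jak2 at 15.8 and 13.4, and the STAT5-induced inhibitor Cish at 43.9 and 29.3. Growth hormone receptor Ghr, with 180 and 267 FPKM, lay on the other side. Elf5 was also the only 1 of 15 alveolar and luminal transcription factors past the threshold, though 13 of the 15 were positive, among them Ehf (196 and 105 FPKM) and Sox9 (30.0 and 17.3).

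Epithelial markers were mostly positive, and 1.18% of all genes passed the threshold on that side. Of 16 luminal markers, 15 were positive and 2 passed the threshold, Elf5 and the surface protein Cd24a (630 and 295 FPKM), with a median of 0.50; on a common sum of FPKM 1 passed. Keratins Krt8 (400 and 312 FPKM) and Krt18 (458 and 347) and the adhesion protein Epcam (320 and 221) differed by less than 1. Of 14 basal and myoepithelial markers none passed, with a median of 0.30. Subtracting the luminal median left differences of 1.30 to 2.28 for the caseins, 2.72 for Wap, 2.98 for Glycam1 and 3.71 for Lao1. It left 2.68 for Lalba, 2.51 for Spp1, 1.06 for Muc15, 0.85 for Cel and 0.19 for Muc1. Mfge8 (-0.07) and Pthlh (-0.54) fell below 0. In whole tissue, more epithelial cells and more RNA per epithelial cell cannot be told apart.

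Fat cells and lipid synthesis lay on the lower side. All 18 white adipocyte markers were negative and 6 passed the threshold, against 4.04% of all genes, with a median of -0.65. Lep, the fat cell hormone leptin, was 67.6 FPKM in the Ezh2 KO and 156 in the Ezh1 KO. Adiponectin, Adipoq, was 739 and 1491 FPKM. The fatty acid carrier Fabp4, the most abundant fat cell transcript here, was 7601 and 11774. The 6 genes past the threshold were picked as lower in the Ezh2 KO than in the Ezh1 KO. In all 6 the Ezh2 KO was also below the control and the E1+/-;E2f/f;control glands. Picking genes low in the Ezh2 KO favours that place. Of 17 genes for making fatty acids, 5 were lower and none higher. Scd1, which introduces the double bond into stearic acid, stood at 852 and 2007 FPKM. Malic enzyme Me1 stood at 139 and 331 FPKM, and the others were Acss2, Elovl6 and the citrate carrier Slc25a1. Fasn, fatty acid synthase, was 299 and 435 FPKM, within the threshold, as were all 21 cholesterol genes. For Fasn and the 5 lower genes, control glands were below both knockouts and the E1+/-;E2f/f;control glands were highest, as in Scd1 with 536 and 2983 FPKM and Fasn with 39.9 and 772.

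Brown fat genes went against white fat. Ucp1, the uncoupling protein that lets brown fat make heat, stood at 65.5 FPKM in the Ezh2 KO and 0.340 in the Ezh1 KO. It was 0.499 FPKM in the control and 1.88 in the E1+/-;E2f/f;control glands, so the Ezh2 KO was the high group of the 4. Cox8b (185 and 73.7 FPKM) and Cpt1b (6.89 and 2.24), muscle-type mitochondrial genes that brown fat shares, were also higher. Counting Cidea, which milk-secreting cells also make, 4 of 11 list members passed, against 1.18% of all genes on the higher side. Prdm16 and Ppargc1a, regulators of the brown fat program, differed by 0.15 and 0.04. The brown fat list held 0.0527% of the summed FPKM in the Ezh2 KO and 0.0206% in the Ezh1 KO, and no list member was at 0 in either; the part of brown fat RNA in these values was not tested.

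Connective tissue, macrophage and nerve lists were mostly negative, with some members past the threshold. The share of lower genes over all genes compared was 4.04%. None of the 16 fibroblast and collagen genes was positive, and 3 passed: Pi16, a marker of fibroblasts around vessels (19.9 FPKM in the Ezh2 KO and 141 in the Ezh1 KO), Fbln1 (3.61 and 11.8) and Dpt (186 and 427). The main collagens Col1a1 (264 and 407 FPKM) and Col3a1 (691 and 932) stayed within the threshold. Of 15 macrophage genes, 14 were negative and 5 passed, with a median of -0.94; on a common sum of FPKM 11 passed. Lyve1, a receptor of tissue macrophages and lymph vessels, was 5.73 and 22.6 FPKM, and the macrophage lectin Cd209f was 16.7 and 46.9. Of 11 nerve and Schwann cell genes, 5 were lower, with a median of -0.95 and a range of -1.81 to -0.42 over the alternatives. Pmp22, a myelin protein, was 39.0 FPKM in the Ezh2 KO, 137 in the Ezh1 KO, 156 in the control and 107 in the E1+/-;E2f/f;control glands, so the Ezh2 KO was the low group of the 4. Itgam, Trem2 and the mannose receptor Mrc1 (14.1 and 29.6 FPKM) completed the macrophage calls, and the complement genes C1qa (153 and 272 FPKM) and C1qb (109 and 210) came close.

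The lists of vessels and other blood cells were short, so their counts cannot be set apart from the 5.22% of all genes past the threshold. Of 13 endothelial genes, Lyve1 alone passed, and Pecam1, an adhesion protein of vessel walls, was 57.4 and 50.5 FPKM. Of 10 neutrophil and mast cell genes, 8 were negative, with a median of -0.61, and the mast cell protease Cma1 passed with 12.0 and 26.5 FPKM. No B cell or T cell gene passed, among 3 and 10 compared.

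Ovarian hormone genes stayed within the threshold in all 11 compared, with a median of 0.11. The estrogen receptor gene Esr1 was 5.95 FPKM in the Ezh2 KO and 8.96 in the Ezh1 KO, and the progesterone receptor gene Pgr 2.16 and 3.35. Tnfsf11, the RANK ligand through which progesterone drives alveolar growth, was 21.2 and 19.5 FPKM, and its receptor gene Tnfrsf11a 9.29 and 5.92. Id2, a helix-loop-helix protein needed for alveolar growth, was 176 and 104 FPKM. No Notch gene of 12 and no EGF family gene of 10 passed. Over all genes 5.22% passed, so a count of none in lists this short is near that share.

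Some Wnt, insulin-like growth factor, matrix and imprinted genes were among the lower genes. Which cells made them was not tested. Sfrp4, a secreted Wnt inhibitor, was 2.53 FPKM in the Ezh2 KO and 23.4 in the Ezh1 KO. The ligands Wnt2 (1.28 and 5.58 FPKM) and Wnt10b (0.225 and 1.69) and the inhibitor Sfrp5 (6.77 and 19.7) were lower as well. So 4 of 18 Wnt genes were lower, against 4.04% of all genes, and 1, Wif1, was higher by 1.01. Igfbp6, which binds insulin-like growth factor 2, was 42.2 and 185 FPKM. The matrix protease gene Mmp9 (2.59 and 7.40 FPKM) and the protease inhibitor gene Timp2 (93.6 and 201) were lower. Of the imprinted genes, 3 of 13 were lower: Mest (26.5 and 63.6 FPKM) and the non-coding Meg3 and Rian, which share 1 imprinted cluster.

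**Figure D3:**
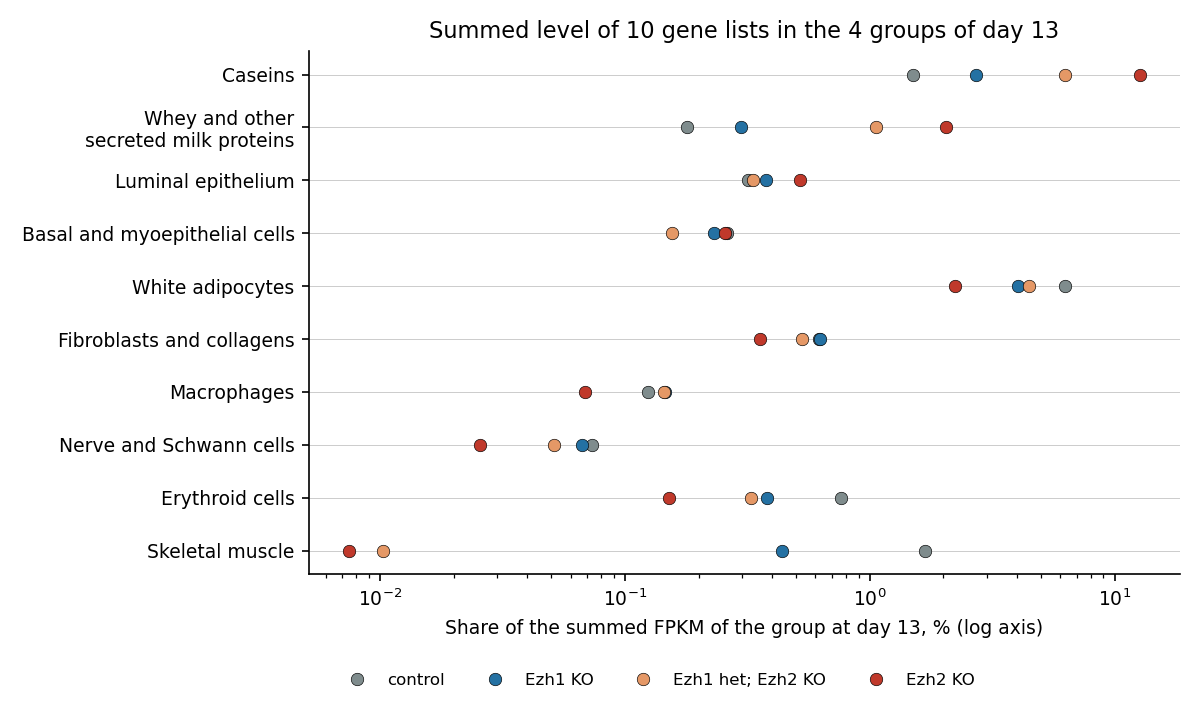
Points give the summed FPKM of each of 10 gene lists as a percentage of the whole sum of that group, on a log axis, for the 4 groups of day 13. The Ezh2 KO has the highest casein share (12.7%) and the lowest white adipocyte share (2.23%), and skeletal muscle spans 0.007% to 1.68%.

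Genes of tissues that are not mammary gland differed most of all. Of 14 skeletal muscle genes, 13 were lower in the Ezh2 KO, against 4.04% of all genes, with a median of -6.25. The filter of 1 FPKM in either group let in some of them through the Ezh1 KO alone. Actn3, for example, was 0.541 FPKM in the Ezh2 KO and 81.5 in the Ezh1 KO. Creatine kinase Ckm was 1.45 FPKM in the Ezh2 KO, 383 in the Ezh1 KO, 1404 in the control and 2.07 in the E1+/-;E2f/f;control glands. The muscle list held 0.007% of the summed FPKM in the Ezh2 KO and 0.439% in the Ezh1 KO, and no list member was at 0 in either. Its part in the other results was not tested. Scaling both groups by the sum without milk, muscle, erythroid and hepatocyte lists left the casein median at 2.34.

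A liver signature was seen in the Ezh1 KO. Of 23 hepatocyte genes, 20 were lower in the Ezh2 KO, against 4.04% of all genes. The median of -2.55 ranged from -4.56 to -1.22 over the alternatives. In 19 of these 20 the Ezh1 KO was the highest of the 4 day 13 groups. Its place above the Ezh2 KO was set by the choice of these genes. Choosing genes high in the Ezh1 KO also favours its place above the control and the E1+/-;E2f/f;control glands. The filter of 1 FPKM in either group also let in genes, such as Fabp1, through the Ezh1 KO alone. Apoa2, an apolipoprotein of high-density lipoprotein, stood at 1.23 FPKM in the Ezh2 KO, 143 in the Ezh1 KO, 1.26 in the control and 6.62 in the E1+/-;E2f/f;control glands. Fabp1, the liver fatty acid binding protein, stood at 0.217 and 74.3 FPKM, albumin Alb at 4.57 and 110, and Ahsg, Ambp, Fga, Gc, Hamp and Hamp2, 6 of the 25 listed genes, were at 0 in the Ezh2 KO while none was at 0 in the Ezh1 KO. At day 18 the Ezh1 KO had 1.27 FPKM of Apoa2 and 0.104 of Fabp1. Trf, transferrin, is in the same list but is made by mammary epithelium too, and it lay on the other side with 2328 and 1167 FPKM. The part of liver RNA in the other results was not tested.

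Globin genes could not be read as a unit. The beta-globins Beta-s (751 and 1960 FPKM) and Hbb-b2 (35.5 and 272) and the heme synthesis enzyme Alas2 were lower in the Ezh2 KO. Hba-a1, alpha-globin, was listed at 252 FPKM in the Ezh2 KO and at 0 in the Ezh1 KO. Its near-identical copy Hba-a2 was 0.0720 and 0 FPKM. In the E1+/-;E2f/f;control glands Hba-a1 was 0.340 and Hba-a2 174. Values of such copies are uncertain.

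Counts for genes tied to Polycomb and to growth control stand beside 5.22% of all genes past the threshold. In lists this short, a count of none or 1 is near that share. Of 18 PRC1 genes, Bmi1 passed the threshold, with 33.6 FPKM in the Ezh2 KO, 15.6 in the Ezh1 KO, 19.3 in the control and 33.5 in the E1+/-;E2f/f;control glands. It did not pass on a common sum of FPKM or with a pseudocount of 5. BMI1 is a PRC1 subunit that represses the Ink4a/Arf locus. Cdkn2a, the gene at that locus, stood at 0.920 and 1.02 FPKM, and none of the 7 compared cyclin-dependent kinase inhibitors passed. Cdkn2c (76.5 and 120.5 FPKM) and Cdkn2b (1.73 and 2.95) were the most negative of them, and Cdkn1a (19.3 and 18.7) and Cdkn1b (40.5 and 39.4) were close to equal. Of 38 developmental transcription factors, which PRC2 silences in many cells, 14 reached 1 FPKM, none was higher and 2 were lower, Emx2 (0.250 and 1.93 FPKM) and Tbx15 (2.25 and 6.53). These 2 are 14.3% of the 14, against 4.04% of all genes; 11 of the 14 were negative, and the median was -0.48. With a pseudocount of 5 neither passed. None of 23 Hox genes passed, 18 were negative, and the median was -0.32. None of 29 replication and mitosis genes passed either, with a median of 0.24, and the 82 ribosomal protein genes had a median of 0.27.

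Immediate early genes, which cells switch on within minutes of a stimulus, were lower in 5 of 20, against 4.04% of all genes. Fos was 14.1 FPKM in the Ezh2 KO and 31.5 in the Ezh1 KO, and Fosb 0.550 and 3.31. Klf2, Klf4 and the phosphatase Dusp1 (18.5 and 38.3 FPKM) were the others. These 5 were picked as higher in the Ezh1 KO than in the Ezh2 KO. In all 5 the Ezh1 KO was also above the control and the E1+/-;E2f/f;control glands. Picking genes high in the Ezh1 KO favours that place. The rest of the list was not ranked. One clock output gene, Dbp, was lower, at 5.68 and 15.1 FPKM. Among 15 ubiquitously expressed genes none passed and the median was 0.12.

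Small RNA genes passed the threshold far more often than other genes. Of 240 compared miRNA, snoRNA, guide RNA and snRNA entries, 172 (71.7%) passed, 140 lower (58.3%) and 32 higher (13.3%). At day 18 the share was 52.4%. Of the 703 genes counted in either direction, 119 were listed at 0 in 1 of the groups, and 96 of these were such small RNA genes. The lowest non-coding entries, Mir5119 and Mir675, were at 0 in the Ezh2 KO and at 247 and 176 FPKM in the Ezh1 KO; the highest, Snord37, was at 46.1 and 0. Mir5119 was reversed at day 18, with 245 FPKM in the Ezh2 KO and 0 in the Ezh1 KO. These entries are short, were read from poly(A) libraries and do not measure the mature molecules.

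The same genotypes at day 18, in separate libraries, served as the nearest comparison, with 3 libraries for the Ezh2 KO and 2 for the Ezh1 KO. There, 283 of 12518 genes (2.26%) passed the threshold, 149 (1.19%) higher in the Ezh2 KO and 134 (1.07%) lower. On a common sum of FPKM the split was 325 and 87. The protein-coding part of these was 95 (0.797%) on the higher side and 56 (0.47%) on the lower. The milk genes had changed sides. All 5 caseins were below the Ezh1 KO, with a median of -0.69 and none past the threshold. Csn2 was 70592 FPKM in the Ezh2 KO and 124750 in the Ezh1 KO, and Wap was 12683 and 33251. For the 10 compared whey-list genes the median was -0.58, and 3, Wap, Lao1 and Muc1, passed on the lower side. The direction of the caseins held under each of the 3 scalings tried, with a median of -0.31 on a common sum of FPKM. On that scale the whey list had a median of -0.28, with 3 of 10 positive and 1 past the threshold.

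The Ezh2 KO was nearer to its own day 18 level already at day 13. Its day 13 level of Csn2 was 60.5% of its day 18 level, against 6.77% in the Ezh1 KO and 3.82% in the control. For Csn1s2a these shares were 43.8%, 3.39% and 1.60%. Late whey genes were further from their day 18 level in both knockouts, with Wap at 2.29% in the Ezh2 KO and 0.091% in the Ezh1 KO. Muc15 had 160% of its day 18 level in the Ezh2 KO and 53.9% in the Ezh1 KO. No replicate values exist to test the difference between the days.

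**Figure D4:**
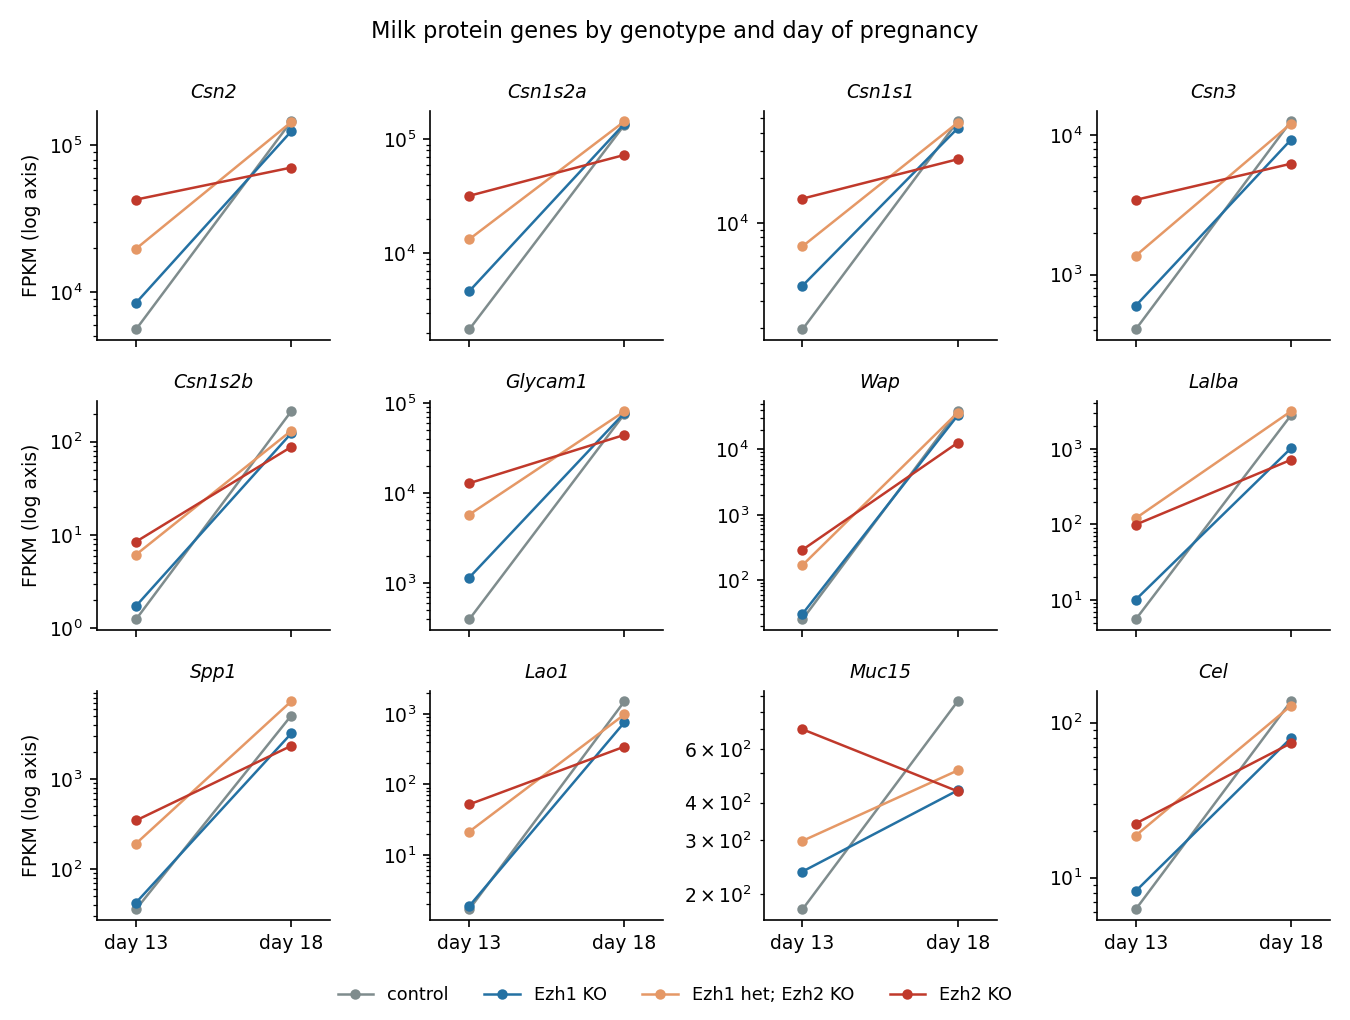
Each panel gives the FPKM of 1 milk protein gene on its own log axis at days 13 and 18 for the 4 genotypes; points are pooled group values and carry no error bars. The Ezh2 KO line starts above the Ezh1 KO line in all 12 genes at day 13 and ends below it at day 18, by very little in Muc15 and widely in Csn2, from 42713 against 8447 to 70592 against 124750.

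Other gene groups also changed sides between the days. The interferon list had a median of -0.74 at day 18, with 5 of 22 lower and 1 higher; on a common sum of FPKM the median was -0.38, with 2 lower and 1 higher. Of the 18 white fat markers, 3 were higher at day 18 and the median was 0.47, among them Lep at 204 FPKM in the Ezh2 KO and 47.5 in the Ezh1 KO. Fatty acid synthesis genes had a median of 0.45 and 3 of 17 higher, with Scd1 at 1245 and 538. On a common sum, 6 white fat markers and 6 fatty acid synthesis genes were higher, with medians of 0.85 and 0.83. Erythroid genes had a median of 2.03, with Beta-s at 3376 and 572 FPKM. Skeletal muscle kept its side, with a median of -2.91 and 12 of 13 lower, and so did the brown fat list, with a median of 0.92 and Ucp1 at 32.4 and 1.36.

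Across the 12436 genes compared at both days, the differences had a Pearson r of 0.038 and a Spearman rho of -0.090. These describe genes of a few pooled libraries, which are not independent. Of the genes that were higher at day 13 and compared at both days, 20 of 140 (14.3%) were also higher at day 18, which is 15.6% of the 128 higher there. Of the lower genes, 63 of 383 (16.4%) were also lower at day 18, which is 54.8% of the 115 lower there. In the opposite sense, 40 of the 383 lower genes were higher at day 18 (10.4%) and 14 of the 140 higher genes were lower (10.0%). Among all 12436 genes, 1.03% were higher and 0.925% lower at day 18.

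**Figure D5:**
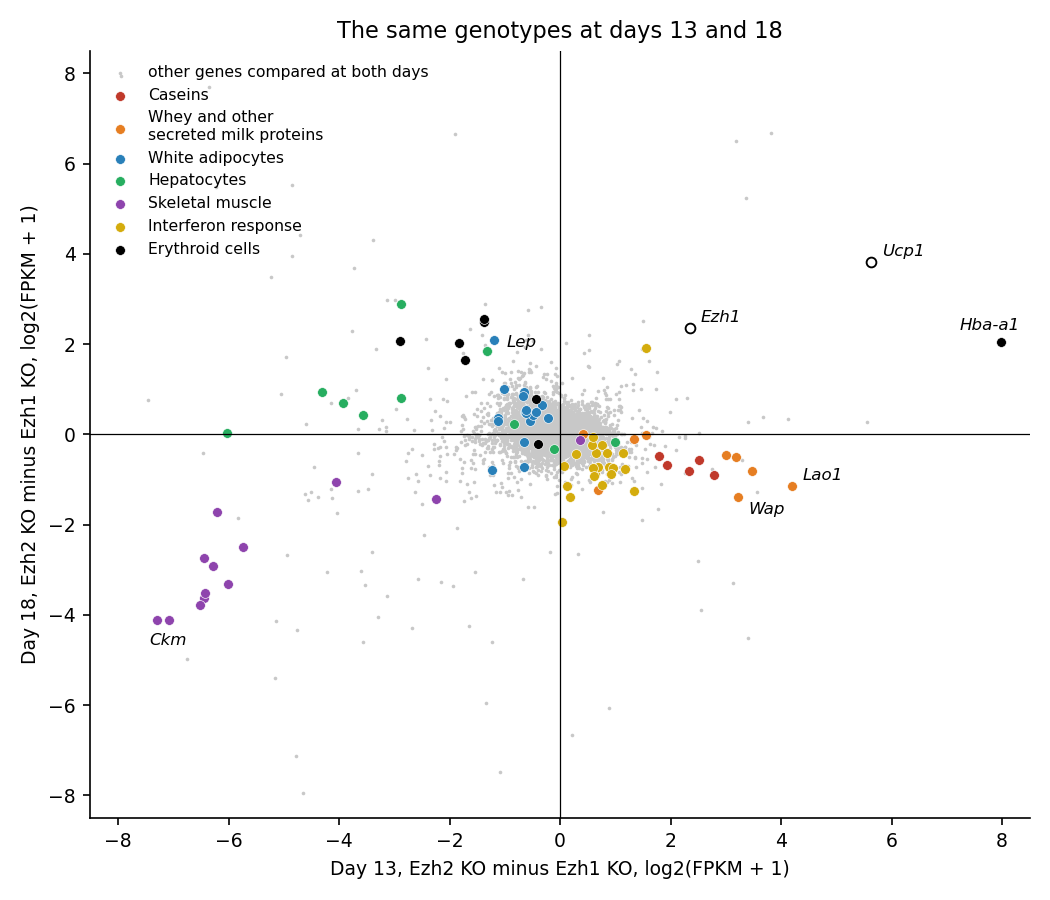
Each point is 1 of 12436 genes, with the day 13 difference between Ezh2 KO and Ezh1 KO on the horizontal axis and the day 18 difference on the vertical axis, both on the log2(FPKM + 1) scale. Milk and interferon genes lie mainly to the right and below 0, white adipocyte and erythroid genes mainly to the left and above 0, and skeletal muscle genes to the left and below 0.

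Several genes were on the same side of the threshold at both days. They were chosen after their values were seen. Ifi202b, an interferon-inducible DNA sensor, was 1.61 FPKM in the Ezh2 KO and 0.0244 in the Ezh1 KO at day 13, and 1.61 and 0.0243 at day 18. Bmp5, a growth factor of the TGF-beta family, was 3.13 and 0.219 FPKM, then 2.25 and 0.245. The transcription factor gene Tcfap2e was 1.51 and 0.0926 FPKM, then 1.38 and 0.113. On the lower side, Serinc3, a membrane protein that restricts retroviruses, was 79.5 and 258 FPKM at day 13 and 161 and 348 at day 18. The animals were outbred, and for such genes genetic background and the deletions cannot be told apart.

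Genes next to Ezh1 and Ezh2 were checked, since a targeted allele travels with its neighbours. Of the 30 nearest protein-coding genes in the RefSeq order around Ezh1, 26 were compared and none passed the threshold, with differences from -0.90 to 0.54. Over all genes 5.22% passed, so none of 26 is near that share. The lowest difference was that of Wnk4, a kinase that regulates salt transport. It stood at 2.85 FPKM in the Ezh2 KO and 6.17 in the Ezh1 KO, and at 1.18 and 2.97 at day 18. As plain ratios, the Ezh1 KO was 2.16-fold above the Ezh2 KO for Wnk4 and 2.26-fold for 1700113I22Rik, so the count depends on the pseudocount. Both genes were singled out after their values were seen. Around Ezh2, 11 of 30 neighbours were compared and none passed.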

How the data were processed

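Gene expression was read from a table that the authors deposited in FPKM (fragments scaled to transcript length and library total), with 22552 genes and 12 columns, 1 per group of 2 or 3 libraries. Per the submitters' processing notes, the tools named are TopHat, Cufflinks, Cuffdiff, Bowtie, BWA, HOMER, CASAVA, FastQC and Trim Galore, and the build is mm9; their roles and versions, and how libraries were pooled, are not given in the sources used here. Whole reads could not be recovered: among 1311 genes under 0.05 FPKM in both groups, no ratio of the values was shared by more than 1.45%. Read depth is therefore unknown, and FPKM depends on what else a library holds.

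Each column was matched to its group by name. The Ezh2 KO and Ezh1 KO columns of day 13 were compared for genes with at least 1 FPKM in either, with a pseudocount of 1 and a threshold of 1 on the log2 scale. A limma or count model could not be fitted with 1 value per group. Biotypes came from RefSeq (GRCm38.p6), where 20004 table entries matched a current symbol, 2310 a synonym and 238 neither. Named genes were the targets, the 15 protein-coding genes with the largest difference in each direction and at least 5 FPKM, the 4 largest differences of each of 49 gene lists, every casein, whey, PRC2, kinase inhibitor and prolactin pathway gene, the 10 highest genes and the 5 largest non-coding differences each way; not all are printed, and some other list members are named. The members and lists were chosen with earlier results of these data known. Alternatives were other pseudocounts, filters, scalings, thresholds and gene sets. Analyses used Python 3.11.15, pandas 2.3.3, NumPy 2.4.6 and matplotlib 3.10.9, and the counting was tested on simulated data. Chromatin libraries and virgin glands were not analysed here. One gene is not reported here.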

Additional observations from a re-analysis of the deposited data

How the results depend on the processing

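None of the 703 genes past the threshold at day 13 changed sign under the other pseudocounts and scalings, but 335 still passed with a pseudocount of 5 and 659 on a common sum of FPKM. At day 13, a pseudocount of 5 gave 78 higher and 257 lower genes, a threshold of 2 gave 46 and 179, and leaving out small RNA genes and the muscle, hepatocyte, erythroid and nerve lists, an alternative chosen after seeing the data, gave 361 lower genes. At day 18, a pseudocount of 0.1 gave 235 higher genes, a pseudocount of 5 gave 79 higher and 79 lower, a common sum of FPKM gave 325 and 87, protein-coding genes alone gave 95 and 56, a threshold of 2 gave 51 and 56, and the same set of left-out genes gave 94 and 58. The common sum thus puts 78.9% of the day 18 calls on the higher side, in place of 52.7%, and it moved the median of all day 18 genes by 0.32; protein-coding genes alone gave 62.9%, the scaling without milk, muscle, erythroid and hepatocyte lists 62.0% and the left-out genes 61.8%. Other counts stayed within 1.5 times.

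No paired analysis was possible because the table holds 1 pooled column per group, so replicate numbers cannot be used, and leaving out single replicates was not run for the same reason. With a pseudocount of 5, calls fell in the interferon list from 4 to 1, transport from 4 to 1, milk immunity from 5 to 2 on the higher side, hepatocytes from 20 to 13, macrophages from 5 to 2, nerve from 5 to 3, Wnt from 4 lower to 2, imprinted genes from 3 to 1, immediate early genes from 5 to 1, and PRC1, developmental, clock and mast cell calls to 0. Over the 49 list medians and all alternatives, 21 values changed sign or crossed a size of 1. On a common sum the medians that changed sign included PRC2 (-0.04), PRC1 (-0.09), prolactin (-0.02), ovarian hormone (-0.06) and ubiquitous genes (-0.06), and with a filter of 5 FPKM for developmental factors (0.01). Depth is unknown, so no counting interval can be given for any value.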
